A study of Mus musculus with 6 samples.

Results

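The 7 genes of the lymphatic endothelium and of its growth factor VEGFC were described in endothelial cells (ECs) of mouse lungs, 7 of the 24063 gene symbols in the deposited tables. They were chosen by name as markers of lymphatic ECs (Prox1, Lyve1, Pdpn, Mmrn1 and Reln), as the VEGFC receptor gene (Flt4) and as the ligand gene itself (Vegfc), and all 7 passed the filter on low counts. The ECs came from C57BL6 mice, were isolated on magnetic beads against CD31, and gave 3 libraries from sham-operated mice, which had the chest opened without removal of a lung, and 3 from mice whose left lung had been removed 7 days before (pneumonectomy, PNX). The labels give male mice of 8 weeks, whereas the methods give an older age, and each library was pooled from 2 mice. The labels of these libraries name no mutation or transgene. CD31 is found on blood and lymphatic ECs alike and on some leukocytes and platelets, so that a library may be a mixture, and in such bulk RNA fewer cells of a type and less RNA per cell cannot be told apart.

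Lymphatic vessels drain fluid and immune cells from the lung. PROX1, a homeobox transcription factor, sets and keeps the lymphatic identity of an EC. VEGFC is secreted as a precursor, is cut by ADAMTS3 on the scaffold protein CCBE1, and then activates the receptor tyrosine kinase VEGFR3, which Flt4 encodes, with neuropilin 2 as a co-receptor. None of these genes is exclusive to lymphatic ECs: LYVE1, a hyaluronan receptor, is also present on some tissue macrophages, podoplanin (Pdpn) on alveolar type 1 and mesothelial cells, and VEGFR3 on blood ECs that form sprouts.

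Total counts ranged from 29526989 to 81282871 per library. The titles of replicates 1 and 2 of each group mark them as re-used, and that of replicate 3 does not. Replicates 1 and 2 are called here the earlier deposit and replicate 3 the later deposit, which is a reading of that mark. Replicates 1 and 2 of a group differed by little more than counting error (chi-square per degree of freedom 1.75 in sham and 1.57 in PNX, against 67.9 to 86.4 for pairs with replicate 3). Each such pair was therefore summed into 1 sample, so that n = 2 in each group. Nothing in the labels says that these samples were prepared independently, and p-values measure only the spread between them. The marker genes of ECs, Pecam1, Cdh5, Cldn5, Erg, Tie1, Emcn and Vwf, were counted in every library with a summed level of 5357 to 6163 CPM in the sham libraries and 5312 to 5795 CPM in the PNX libraries (counts scaled by TMM and by library size to CPM). Genes of alveolar type 1 cells, an epithelial type, were also counted, at a summed 1134 to 5610 CPM over the 6 libraries. The EC markers alone therefore do not establish the purity of the preparation. The paper's methods report a flow cytometry check of the isolated cells, in which most were CD31-positive. Ager and Hopx of the alveolar type 1 genes, and Pecam1 and Emcn of the EC genes, have more than 1 listed transcript, with near-equal counts. If shared reads were counted for each transcript, which is not known, both summed levels are too high and cannot be set against each other.

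No gene of the 7 passed the thresholds of the study, a log2 fold change beyond 1 in size with an adjusted p below 0.01. Prox1, Pdpn and Vegfc had higher mean levels after PNX, by 0.72, 0.52 and 0.40 on the log2 scale, and Lyve1 a lower one, by -0.87. Flt4, Mmrn1 and Reln differed by 0.13 to 0.17. In edgeR's quasi-likelihood test with 4 samples, 0 of the 7 and 0 of 16598 genes tested were called, which is 0% of the background. Of the 7 genes 0 had an unadjusted p under 0.05, against 2076 of all genes. In simulated data this fit called 0 of 200 genes given a log2 difference of 2, so its 0 does not show that no gene changed. When the deposit entered as a replicate block, edgeR called 849 genes, 5.12% of those tested, and DESeq2 on the 4 samples without a block called 572 (3.45%). edgeR on the 6 libraries as separate replicates called 409 (2.51%), and DESeq2 on them 921 (5.66%). Of the 7 genes 0 were called in any of these. At an adjusted p under 0.01 and any fold change, edgeR with the block had 0 of the 7 genes, against 9.54% of all genes. In other blocked fits Pdpn was under 0.01 (adjusted p = 0.00746 in edgeR on the 6 libraries and 0.00153 in DESeq2 on the 4 samples), as was Vegfc in the first of these (0.00815), at folds below the threshold.

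**Figure D1:**
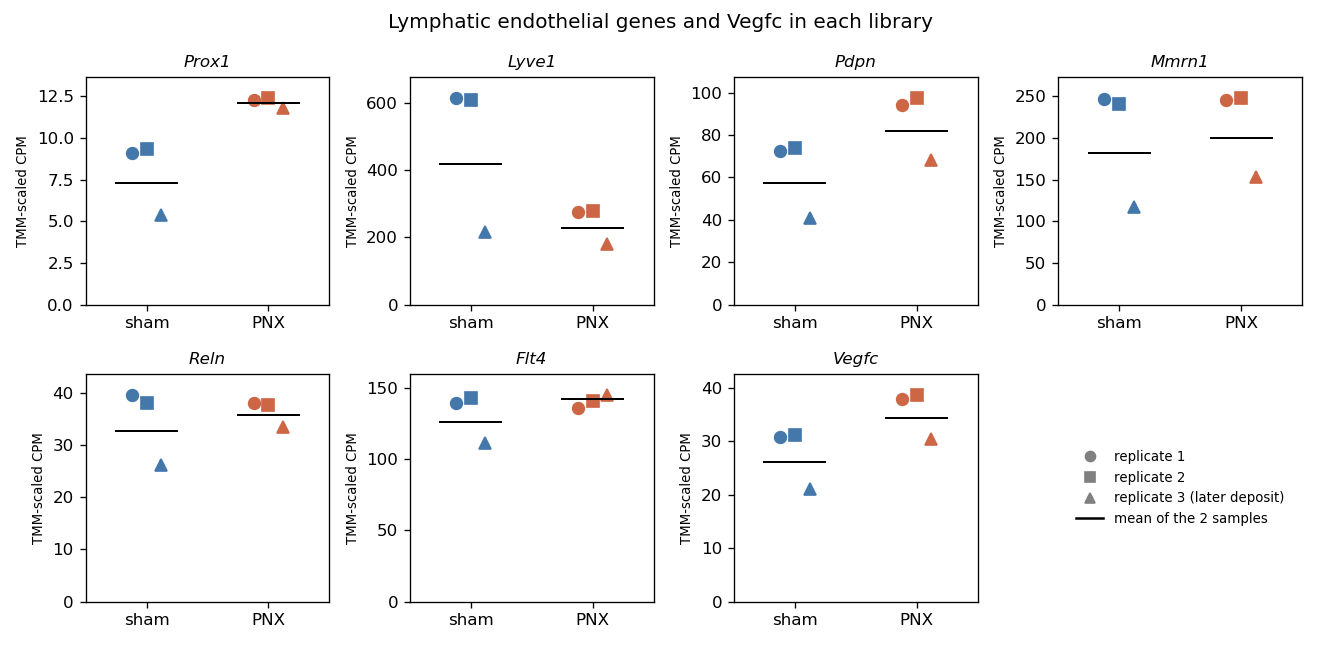
TMM-scaled CPM of each of the 7 genes (vertical axes, linear from 0) in the sham and PNX libraries; symbols mark the replicates and the line is the mean of the 2 samples of a group. Prox1 is the only gene whose 3 PNX libraries (11.8 to 12.4 CPM) all lie above its 3 sham libraries (5.35 to 9.31 CPM), and in sham the replicate of the later deposit is the lowest in every panel.

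Prox1 (chromosome 1, 190118035 to 190170714, minus strand of GRCm38, counted on NM_008937 with 5 exons) was the member with the lowest level and the most separate groups. Sham replicates 1, 2 and 3 had 733, 667 and 180 counts and levels of 9.09, 9.31 and 5.35 CPM. PNX replicates 1, 2 and 3 had 912, 815 and 353 counts and levels of 12.3, 12.4 and 11.8 CPM. All PNX libraries were above all sham libraries, as for 18.8% of genes tested (0 of the 7 genes had all PNX below all sham libraries, as for 17.9%), and the PNX libraries lay close together whereas the later sham library lay well below the other two. The mean was 7.31 ± 2.84 CPM in the sham samples and 12.1 ± 0.225 CPM in the PNX samples (SD, n = 2). The log2 fold change was 0.72 (standard error, SE, 0.31, approximate 95% interval -0.08 to 1.52, edgeR adjusted p = 0.449). With the replicate block it was 0.74 (SE 0.19, interval 0.30 to 1.17, edgeR adjusted p = 0.0305), which passes neither threshold. The ratio of PNX to sham was 1.32 (exact 95% interval 1.23 to 1.42) for the earlier and 2.26 (1.88 to 2.72) for the later deposit; such intervals cover counting error only. Without sham replicate 3 the log2 fold changes of Prox1, Pdpn and Vegfc were 0.39, 0.17 and 0.15. Annotated antisense genes, Prox1os and Gm28172, overlap Prox1, and no source says that counting used strand, so its count may hold their reads.

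Lyve1 (chromosome 7, 110850607 to 110863239, minus strand, NM_053247, 6 exons) was the most abundant member and was lower after PNX in both deposits. Its level was 615, 610 and 216 CPM in the sham libraries (replicates 1 to 3 in turn, as in all such series) and 276, 278 and 181 CPM in the PNX libraries. The sham libraries of the earlier deposit stood far above the other 4 libraries, while the later sham library lay within the range of the PNX libraries, so that the groups overlapped. The mean was 417.3 ± 287.2 CPM in the sham samples and 229.0 ± 65.7 CPM in the PNX samples (SD, n = 2). The log2 fold change was -0.87 (SE 0.54, approximate 95% interval -2.28 to 0.55, edgeR adjusted p = 0.617). With the replicate block it was -0.71 (SE 0.20, interval -1.18 to -0.23, edgeR adjusted p = 0.0453). The ratio of PNX to sham was 0.444 (0.439 to 0.449) for the earlier and 0.852 (0.822 to 0.883) for the later deposit. The fold change was -1.42 without sham replicate 3 and -0.60 without PNX replicate 3.

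Markers of tissue macrophages, a further source of Lyve1 transcripts, were at higher summed levels after PNX. All 8 genes of that list (Mrc1, Cd163, F13a1, Folr2, Csf1r, Cd68, Stab1 and Adgre1, listed as Emr1) were counted in every library, and their summed level was 571 to 985 CPM in the sham libraries and 909 to 1358 CPM in the PNX libraries. With the replicate block 3 of the 8 were called higher and 0 lower, where 5.12% of all genes were called in either direction. The share of the Lyve1 counts that comes from macrophages was not tested.

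Pdpn (chromosome 4, 143267431 to 143299564, minus strand) encodes podoplanin, a mucin-type membrane protein that binds CLEC2 on platelets. It is listed with 2 transcripts whose counts differed by at most 1 in a library, and whether shared reads were counted for each transcript or split between them is not known. If they were counted for each, the summed level is too high and counting intervals are too narrow, whereas the ratio between groups is the same. The level was 72.2, 73.9 and 40.7 CPM in the sham libraries and 94.2, 97.5 and 68.2 CPM in the PNX libraries. PNX was higher within each deposit, but the later PNX library lay below the earlier sham libraries. The mean was 57.2 ± 23.8 CPM in the sham samples and 82.1 ± 18.6 CPM in the PNX samples (SD, n = 2). The log2 fold change was 0.52 (SE 0.34, edgeR adjusted p = 0.636), and 0.56 with the replicate block (SE 0.11, interval 0.30 to 0.82, edgeR adjusted p = 0.0122).

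Marker genes of the other lung cells known for podoplanin differed in direction. The 6 alveolar type 1 genes (Ager, Hopx, Rtkn2, Aqp5, Akap5 and Emp2) had a summed level of 2549 to 5610 CPM in the sham libraries and 1134 to 4069 CPM in the PNX libraries, and with the replicate block, which called 5.12% of all genes, 2 of 6 were called lower and 0 higher. The 6 mesothelial genes (Msln, Upk3b, Upk1b, Wt1, Lrrn4 and Krt19) had 158 to 383 CPM in the sham libraries and 328 to 856 CPM in the PNX libraries, and 4 of 6 were called higher and 0 lower. All 12 were counted in every library. The part of these cells in the Pdpn level was not tested.

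Mmrn1 (chromosome 6, 60924976 to 60989378, plus strand) encodes multimerin 1, a large secreted glycoprotein of lymphatic ECs, platelets and megakaryocytes. Its 2 listed transcripts had the same count in every library, and the same limit applies to its summed level. The level was 247, 241 and 117 CPM in the sham libraries and 246, 248 and 153 CPM in the PNX libraries. The earlier libraries of both groups lay within 7 CPM of each other, and the later library was the lowest of each group. The log2 fold change was 0.14 (SE 0.43, approximate 95% interval -0.98 to 1.26, edgeR adjusted p = 0.944), and without sham replicate 3 it was -0.29. The platelet genes Pf4, Ppbp, Gp9 and Itga2b were counted in every library. Their summed level was 32.4, 33.6 and 46.7 CPM in the sham libraries and 48.7, 48.2 and 44.5 CPM in the PNX libraries. PNX was thus above sham in the earlier deposit and below it in the later one. With the replicate block 1 of 4, Pf4, was called higher and 0 lower, where 5.12% of all genes were called in either direction. The log2 fold changes of Ppbp, Gp9 and Itga2b in that fit were -0.08, 0.11 and 0.04. The part of platelet RNA in the Mmrn1 level was not tested.

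Reln (chromosome 5, 21884454 to 22344702, minus strand, NM_011261, 65 exons) encodes reelin, a secreted glycoprotein best known from neuronal migration that lymphatic ECs also release. Its level was 39.6, 38.1 and 26.1 CPM in the sham libraries and 38.1, 37.7 and 33.5 CPM in the PNX libraries. The groups overlapped, and only the later sham library was apart. The log2 fold change was 0.13 (SE 0.24, approximate 95% interval -0.49 to 0.75, edgeR adjusted p = 0.897), and without sham replicate 3 it was -0.13. Several annotated antisense genes and pseudogenes lie within Reln.

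Flt4 (chromosome 11, 49609263 to 49652739, plus strand, NM_008029, 30 exons), the VEGFR3 gene, had the smallest ratio of highest to lowest library among the 7. Its level was 139, 143 and 111 CPM in the sham libraries and 136, 141 and 145 CPM in the PNX libraries. Only the later sham library stood below the rest, and the other 5 lay within 136 to 145 CPM. The mean was 126 ± 23.3 CPM in the sham samples and 142 ± 6.59 CPM in the PNX samples (SD, n = 2), a log2 difference of 0.17 (SE 0.18, approximate 95% interval -0.29 to 0.63, edgeR adjusted p = 0.781). Without sham replicate 3 it was 0.01. The approximate interval of the 4 samples leaves out a change of 1 on the log2 scale in either direction, as does that of Reln. Both rest on n = 2 in each group.

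Vegfc (chromosome 8, 54077606 to 54187096, plus strand, NM_009506, 7 exons) was counted in every library, so that the preparation held RNA of the ligand as well as of its receptor. The level was 30.9, 31.1 and 21.0 CPM in the sham libraries and 37.9, 38.7 and 30.4 CPM in the PNX libraries. PNX was higher within each deposit, and the later PNX library was just below the earlier sham libraries. The mean was 26.1 ± 7.51 CPM in the sham samples and 34.4 ± 5.17 CPM in the PNX samples (SD, n = 2). The log2 fold change was 0.40 (SE 0.25, approximate 95% interval -0.26 to 1.05, edgeR adjusted p = 0.620), and 0.41 with the replicate block (SE 0.10, interval 0.17 to 0.65, edgeR adjusted p = 0.0278). The ratio of PNX to sham was 1.21 (1.17 to 1.26) for the earlier and 1.48 (1.34 to 1.64) for the later deposit.

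**Figure D2:**
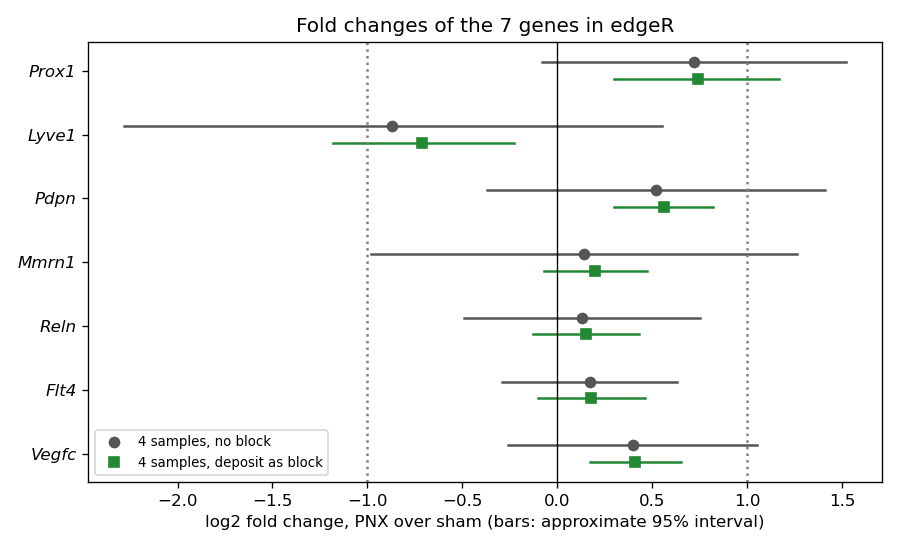
Log2 fold change of PNX over sham (horizontal axis) for the 7 genes in edgeR with 4 samples, without a block (circles) and with the deposit as a block (squares), with approximate 95% intervals and dotted lines at -1 and 1. All 7 intervals without a block include 0; with the block those of Prox1, Pdpn and Vegfc lie above 0 and that of Lyve1 below.

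Across the 7 genes, 3 were higher after PNX in both deposits (Prox1, Pdpn and Vegfc), where 36.0% of all genes tested were, and 1 was lower in both (Lyve1), where 39.3% were. Flt4, Mmrn1 and Reln were 0.956 to 0.994 times sham in the earlier deposit and 1.31 to 1.34 times in the later one. With the replicate block and an adjusted p under 0.05 at any fold change, 3 of 7 genes were higher, against 11.5% of all genes, and 1 of 7 was lower, against 10.1%. This criterion was added after the values were seen, and the counts depended on the fit. The adjusted p of Lyve1 was 0.0703 in edgeR with the block under DESeq2's size factors, 0.0628 with library size alone and 0.353 in DESeq2 with the block. That of Prox1 was 0.0504 in edgeR with the block under DESeq2's size factors, and that of Vegfc 0.0558 in DESeq2 with the block. Only Pdpn was under 0.05 in all of these. The median log2 fold change of the 7 was 0.17, against -0.01 over all genes tested.

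In sham the later deposit was lower than the earlier one for all 7, by -1.53 on the log2 scale for Lyve1, -1.09 for Mmrn1, -0.87 for Pdpn, -0.81 for Prox1, -0.61 for Reln, -0.60 for Vegfc and -0.38 for Flt4. After PNX it was lower for 6, by -0.67 (Mmrn1) to -0.04 (Prox1), and higher by 0.09 for Flt4. The summed level of the alveolar type 1 genes was also lower in the later deposit, and those of the mesothelial and macrophage genes higher, in both groups. Their part in the deposit difference of the 7 genes was not tested.

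Levels of different genes were compared per length, on the TPM that the authors gave for the transcript with the most counts. In sham the order was Lyve1 (401 ± 274 TPM), Flt4 (54.2 ± 9.80), Mmrn1 (49.1 ± 24.9), Pdpn (39.0 ± 16.1), Vegfc (34.8 ± 9.87), Reln (6.99 ± 2.02) and Prox1 (4.43 ± 1.71; SD, n = 2 samples each). After PNX it was Lyve1 (219 ± 61.6 TPM), Flt4 (60.9 ± 3.14), Pdpn (55.8 ± 12.3), Mmrn1 (53.9 ± 17.1), Vegfc (45.7 ± 6.61), Reln (7.63 ± 0.536) and Prox1 (7.32 ± 0.0932). From Flt4 to Vegfc, each gene differed from the next in the order by less than the sum of their SDs in both groups, as did Reln from Prox1; after PNX Flt4 and Vegfc differed by more. The TPM is that of 1 transcript, and Pdpn and Mmrn1 have 2 with near-equal counts, so that the place of these genes relative to Flt4 and Vegfc depends on how shared reads were counted, which is not known. Lyve1 was first in both groups.

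Ratios of counts within a library do not depend on the scaling between libraries. There were 67.6, 65.5 and 40.4 Lyve1 counts for each Prox1 count in the sham libraries and 22.5, 22.4 and 15.3 in the PNX libraries. The PNX ratios were all below the sham ratios, by 2.97-fold in the earlier and 2.65-fold in the later deposit. Of all genes 66.0% had a ratio to Prox1 that was lower in all PNX than in all sham libraries, and the separation alone is no mark of Lyve1. Mmrn1, Reln, Flt4 and Vegfc relative to Prox1 were also lower in all PNX libraries, by 1.09-fold (Vegfc) to 1.38-fold (Reln) in the earlier deposit and by 1.52-fold (Vegfc) to 1.73-fold (Reln) in the later one. None was higher relative to Prox1 in all PNX libraries, as for 2.86% of genes. Pdpn relative to Prox1 overlapped between the groups, at 7.62 to 7.94 in sham and 5.76 to 7.84 after PNX.

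The ligand was compared with its receptor in the same way. There were 0.223, 0.217 and 0.189 Vegfc counts for each Flt4 count in the sham libraries and 0.280, 0.274 and 0.209 in the PNX libraries, higher in each deposit (1.26 and 1.11 times) but with groups that overlapped. Other receptor genes were separated between the groups by this measure. Kdr, the VEGFR2 gene, whose product binds VEGFA and fully processed VEGFC, had 5.64 to 6.77 counts for each Flt4 count in sham and 4.30 to 4.50 after PNX, lower in all PNX libraries as for 25.2% of genes. Nrp2, the neuropilin 2 gene, had 2.77 to 3.25 in sham and 3.82 to 4.21 after PNX, higher in all PNX libraries as for 8.68% of genes. Its counts sum 6 listed transcripts, several with near-equal counts. If shared reads were counted for each, its ratio to Flt4 is too high in both groups.

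**Figure D3:**
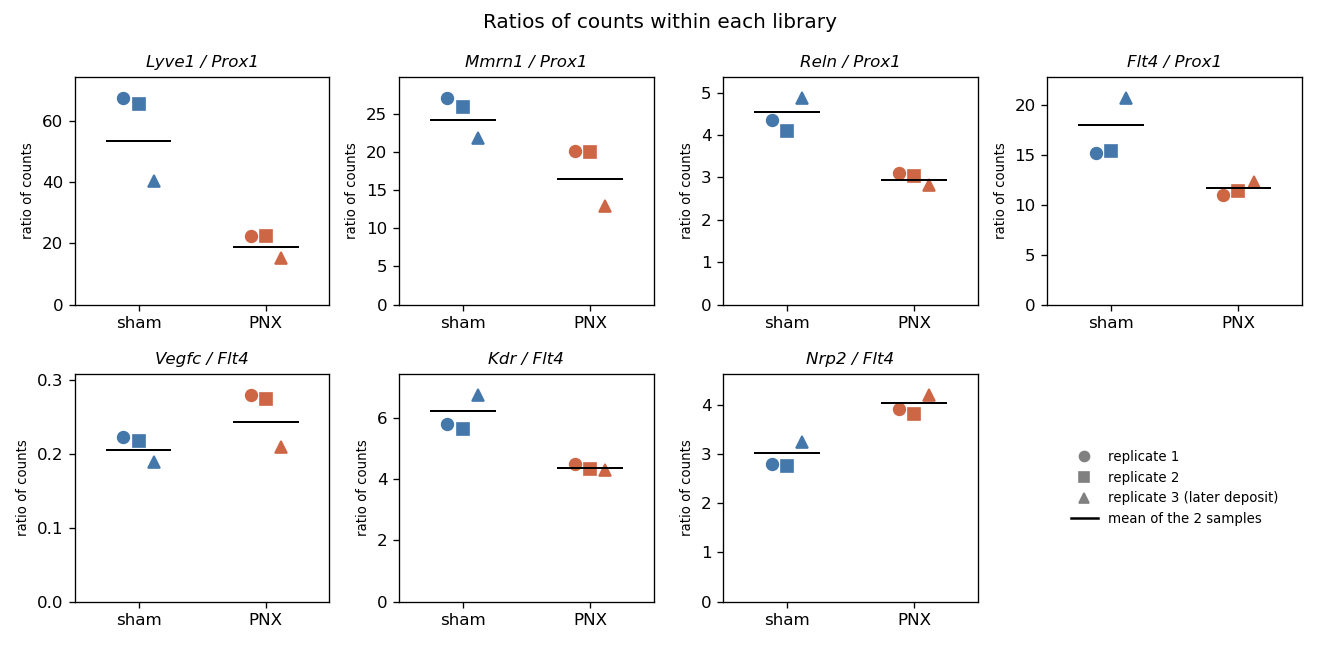
Ratio of the counts of one gene to those of another in the same library (vertical axes, linear from 0); symbols mark the replicates and the line is the mean of the 2 samples of a group. Lyve1 to Prox1 is 40.4 to 67.6 in sham and 15.3 to 22.5 after PNX, and Vegfc to Flt4 overlaps between the groups.

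Of 16 further genes of the VEGFC pathway, all were tested, and 0 were called in edgeR with 4 samples and no block. In that fit 4 of the 16 had an unadjusted p under 0.05, against 2076 of all 16598 genes tested. With the replicate block 1 of 16 was called higher and 0 lower, where 5.12% of all genes were called. The median log2 fold change of the list was 0.23 without and 0.22 with the block, against -0.01 for all genes. The called gene was Adamts2, one of the procollagen peptidases that can also cut VEGFC. Its level was 44.0 ± 9.40 CPM in the sham samples and 123 ± 8.34 CPM in the PNX samples (SD, n = 2), a log2 difference of 1.48 (SE 0.20, edgeR adjusted p = 0.0873) without and 1.50 (SE 0.10, edgeR adjusted p = 9.18e-05) with the replicate block. Of the fibroblast list, Col1a1, Col1a2, Dcn and Lum were called higher with the block, 4 of 5 genes. Pdgfra, a receptor gene of fibroblasts, was lower in both deposits, at 0.837 and 0.606 times sham, with a log2 fold change of -0.49 in the block (edgeR adjusted p = 0.0326). The summed level of the 5 was 789 to 947 CPM in the sham libraries and 2173 to 3154 CPM in the PNX libraries. Their part in the Adamts2 level was not tested.

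Among the ligands and processing factors, Figf, which encodes the related ligand VEGFD, was 1.55 times sham after PNX in the earlier deposit and 0.916 times in the later one (log2 fold change 0.31, SE 0.29, edgeR adjusted p = 0.759). Adamts3, which cuts pro-VEGFC, had 3.13 ± 0.777 CPM in the sham samples and 6.16 ± 0.950 CPM in the PNX samples (SD, n = 2), a log2 difference of 0.99 (SE 0.28, edgeR adjusted p = 0.267) without and 1.04 (SE 0.22, edgeR adjusted p = 0.0160) with the replicate block. Ccbe1, its cofactor, had 10.1 ± 0.894 CPM in sham and 11.5 ± 0.0994 CPM after PNX, a log2 difference of 0.17 (SE 0.17, edgeR adjusted p = 0.767). The adjusted p of Adamts3 was under 0.01 in 3 other fits, DESeq2 on the 6 libraries, DESeq2 with the replicate block and edgeR with the block on the 6 libraries. Adamts3 is listed with transcripts of near-equal counts, so the limit given for Pdpn applies to its level.

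Among the receptors, Nrp2 differed by 0.61 on the log2 scale (SE 0.16, edgeR adjusted p = 0.245; 0.0120 with the replicate block), with 377 ± 29.1 CPM in the sham samples and 576 ± 60.2 CPM in the PNX samples (SD, n = 2). All its PNX libraries were above all sham libraries, as for 18.8% of all genes. The limit given above for the listed transcripts of Nrp2 applies to its level. Nrp1, the other neuropilin gene of the list, was named after its values were seen. All its PNX libraries were below all sham libraries, at 0.735 times sham in the earlier and 0.778 times in the later deposit. Its log2 difference was -0.41 (SE 0.20, edgeR adjusted p = 0.518 without and 0.0272 with the block). Kdr was lower in all PNX libraries, as for 17.9% of all genes, from 780 ± 51.7 to 620 ± 17.2 CPM, a log2 difference of -0.33 (SE 0.15, edgeR adjusted p = 0.488; 0.0694 with the block). Itga9, the integrin chain of lymphatic valves, differed by 0.26 on the log2 scale (SE 0.27, edgeR adjusted p = 0.780). Efnb2 and Dab2, whose products take part in VEGFR3 uptake, were named after their values were seen: their log2 fold changes were -0.55 and 0.66 without the block, and with it edgeR adjusted p was 0.00917 and 0.00443 at folds below the threshold.

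Of 19 other lymphatic markers and transcription factors 17 were tested. Of these 0 were called without or with the replicate block, where 0% and 5.12% of all genes were called. At an adjusted p under 0.01 and any fold change, edgeR with the block had 2 of the 17 higher and 1 lower, against 9.54% of all genes in either direction. The median log2 fold change of the 17 without the block was 0.06, against -0.01 over all genes tested. The genes left out were Ccl21a, with 1 count in all libraries together, and Ccl21b, with 1 to 5 counts in a library. They encode CCL21, the chemokine by which lymphatic ECs attract dendritic cells, and are near-identical copies whose reads the counting could have split or dropped, so this level is uncertain. Of the factors upstream of Prox1, Sox18 differed by 0.06 on the log2 scale (SE 0.45, edgeR adjusted p = 0.982) and Nr2f2, which encodes COUP-TFII, by -0.01 (SE 0.37, edgeR adjusted p = 0.998); both turned direction in other settings. Gata2, a factor of lymphatic valves and of blood ECs, had 185 ± 35.7 CPM in the sham samples and 126 ± 10.7 CPM in the PNX samples (SD, n = 2), a log2 difference of -0.56 (SE 0.19, edgeR adjusted p = 0.338; 0.00673 with the block, at a fold below the threshold). Foxc2, a valve factor, was low (0.927 ± 0.478 CPM in sham, 0.997 ± 0.451 CPM after PNX), and Thy1 differed by 0.24 on the log2 scale (SE 0.21, edgeR adjusted p = 0.742).

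**Figure D4:**
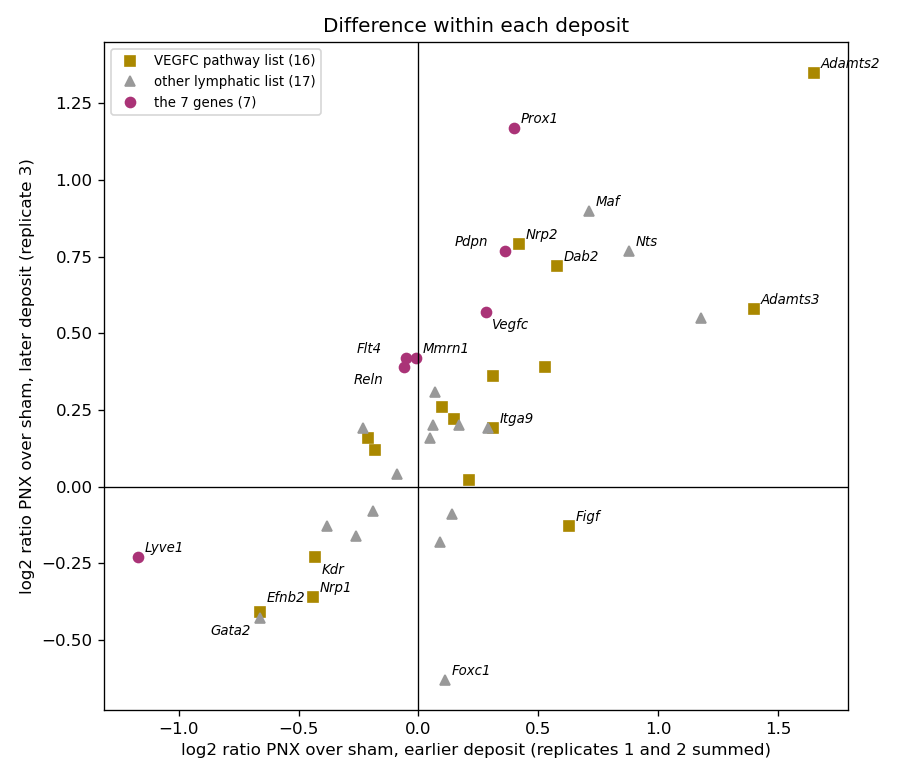
Log2 ratio of PNX over sham in the earlier deposit (horizontal axis) and in the later deposit (vertical axis) for the 7 genes (circles), 16 VEGFC pathway genes (squares) and 17 other lymphatic genes (triangles); each point is one gene. Prox1, Pdpn and Vegfc lie in the upper right, Lyve1 in the lower left, and Flt4, Mmrn1 and Reln near 0 in the earlier deposit.

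The genes whose mean-centred log2 CPM over the 6 libraries lay nearest to that of Prox1, among 14286 other genes with a mean count of at least 50, were B430319G15Rik, Kcnh1, G2e3, Palmd and Pkn3, at a mean absolute distance of 0.0499 to 0.0803. Pdpn was at rank 50 of that order, with a distance of 0.121, and Vegfc at rank 85, with 0.141, whereas the median of all genes was 0.385. Lyve1, at 0.757, was at rank 13361. Nearest to Vegfc were Fkbp1a, Eid2, 0610009B22Rik, Cbx3 and Chchd1, at 0.0296 to 0.0418, with Pdpn at rank 221. The 6 libraries share deposits and replicates 1 and 2 are near copies, so these distances describe these libraries only.

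The 250 bases before the RefSeq transcription start are shown for the 3 genes that were higher after PNX in both deposits. RefSeq (GRCm38.p6) gave a start window for 6 of the 7 genes, Lyve1 being the other. Motifs of factors active in ECs were searched on both strands. The SOX motif, AACAAT, was held by 9.42% of 32851 such windows of the genome. The FOX motif, TGTTTAC, was held by 3.17%, and the ETS motif, CCGGAAG, by 6.91%. The motif of GATA factors, spelled AGATAA, was held by 9.99%, and that of RBPJ, spelled TGGGAA, by 21.6%. Capitals mark a match, and none overlapped another. The Prox1 window is chr1:190170828-190171077 on the minus strand, that of Pdpn chr4:143299565-143299814 on the minus strand and that of Vegfc chr8:54077282-54077531 on the plus strand, all outside the GENCODE gene bodies given above.
Prox1: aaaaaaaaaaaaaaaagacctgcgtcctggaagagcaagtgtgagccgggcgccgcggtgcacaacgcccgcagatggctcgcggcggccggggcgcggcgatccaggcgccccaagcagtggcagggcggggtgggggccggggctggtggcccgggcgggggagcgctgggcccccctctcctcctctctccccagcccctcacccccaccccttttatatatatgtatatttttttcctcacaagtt
Pdpn: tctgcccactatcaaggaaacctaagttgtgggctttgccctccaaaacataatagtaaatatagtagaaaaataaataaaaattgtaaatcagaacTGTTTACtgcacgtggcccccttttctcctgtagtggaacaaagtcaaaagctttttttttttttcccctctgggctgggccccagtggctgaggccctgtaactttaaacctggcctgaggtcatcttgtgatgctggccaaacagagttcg
Vegfc: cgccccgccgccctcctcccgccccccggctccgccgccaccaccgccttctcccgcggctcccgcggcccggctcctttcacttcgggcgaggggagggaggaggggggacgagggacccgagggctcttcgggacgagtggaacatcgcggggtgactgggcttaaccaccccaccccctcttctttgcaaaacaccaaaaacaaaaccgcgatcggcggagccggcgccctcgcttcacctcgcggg
The Pdpn window held 1 FOX match, 153 bases before the start, and those shown for Prox1 and Vegfc held 0 matches. Another RefSeq start of Prox1, inside the gene and not shown, had 1 RBPJ match in its window. The windows differed in base composition, with 64.8% G and C for Prox1, 43.2% for Pdpn and 71.6% for Vegfc. No match says only that these letters are not in the window.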

How the data were processed

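RNA of bead-isolated lung ECs was sequenced by the authors as paired-end reads of stranded mRNA libraries and aligned to mm10 (GRCm38); the submitters' processing notes name STAR. How reads were counted, whether by strand, and which annotation release was used is not stated there. The tables deposited by the authors list 33068 RefSeq transcripts with a raw count, with FPKM (per kilobase, scaled by the library) and TPM (per kilobase, scaled to a fixed sum). The deposited FPKM entered nothing, and the deposited TPM served only to order levels of genes. Every row had a symbol.

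Counts were summed per symbol. For symbols with several listed transcripts the summed level is too high if shared reads were counted for each. The 7 genes, the gene lists and the 4-sample design were chosen with earlier results of these data known. Figf and Emr1 are the symbols listed for Vegfd and Adgre1. Total counts of 29526989 to 81282871 set the depth. The test was that of edgeR 4.0.16, run under R 4.3.3 (TMM, filterByExpr, glmQLFit, glmQLFTest, Benjamini-Hochberg over 16598 genes). DESeq2 1.42.0 and limma 3.58.1 (voom) were alternatives, with other scalings, filters, thresholds, the block and left-out libraries. Exact permutation over 2 against 2 samples cannot go below p = 0.333. The standard error is the log2 fold change divided by the root of the F statistic, an approximation, and 95% intervals use it. Ratios within a deposit have exact Clopper-Pearson intervals (scipy 1.17.1). The deposit, read from the re-used mark in the titles, pairs the samples. Over 13199 genes (no independent replicates) sham and PNX deposit differences had a Pearson r of 0.785 and a Spearman rho of 0.774. Tested on simulated counts for 16598 genes with 200 changed by a log2 fold change of 2, edgeR called 197 with the replicate block and 0 without it, DESeq2 170 and limma-voom 0 without it.

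Named were the 7 genes, list genes called without or with the block, preset list genes by role, and the 5 genes nearest in pattern to Prox1 and to Vegfc. Positions are from GENCODE vM21. The promoter windows are from RefSeq.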

Additional observations from a re-analysis of the deposited data

How the results depend on the processing

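Of the 7 genes 0 passed both thresholds in any of 27 alternatives. Directions held in all of them for Prox1 (0.39 to 0.76), Pdpn (0.17 to 0.73), Vegfc (0.15 to 0.54), Flt4 (0.01 to 0.20) and Lyve1 (-1.42 to -0.60). Without sham replicate 3 Mmrn1 went to -0.29 and Reln to -0.13, and likewise Foxc2 and Sox18 both to -0.28; with single libraries left out the highest values were 0.44 for Mmrn1, 0.21 for Reln, 0.46 for Foxc2 and 0.50 for Sox18. Nr2f2 was 0.05 with 6 libraries as separate replicates, 0.02 with the replicate block on 6 libraries, 0.04 in DESeq2 on 6 libraries, 0.00 with library size alone and 0.02 on the transcript with the highest total, and -0.27 to 0.37 with single libraries left out.

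Genes called numbered 0 with 4 samples and no block. They numbered 409 (370 higher, 39 lower) with 6 libraries as separate replicates, 849 (645 and 204) with the replicate block, 920 with the block on 6 libraries, 572 and 921 in DESeq2 on 4 samples and 6 libraries, and 810 in DESeq2 with the block. With the replicate block they were 624 (540 and 84) under DESeq2's size factors and 629 (550 and 79) with library size alone. At an adjusted p under 0.05 with the block, a threshold added after seeing the data, they were 1186. With single libraries left out they ranged from 0 to 2 without the block, 2 only without PNX replicate 3, and they were 671 and 668 with the block when sham replicate 1 or 2 was left out, and 485 and 863 when PNX replicate 1 or 2 was; without a replicate 3 no block fit is possible, since the later deposit then holds 1 group. limma-voom on the 4 samples called 0, with 2174 unadjusted p-values under 0.05.

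Of the VEGFC pathway list 0 genes were called in the fit without block and 1, Adamts2, in edgeR on 6 libraries, in DESeq2 on 4 samples, with the replicate block, and with the block under DESeq2's size factors or library size alone. There were 2, with Adamts3, in DESeq2 on 6 libraries, DESeq2 with the block, the block on 6 libraries and the block at an adjusted p under 0.05; with single libraries left out the count was 0 without and 1 with the block. Among the marker genes of other cells, 0 were called without the block, as of all genes. With the block 3 macrophage, 4 mesothelial and 4 fibroblast genes and 1 platelet gene were called higher and 2 alveolar type 1 genes lower. That fit called 5.12% of all genes in either direction. The block changed no call of the 7 genes or of the other lymphatic list. The cause of these differences was not tested. No gene of the other lymphatic list was called in any alternative. Prox1 and the other members each had at least 180 counts in every library, whereas Ccl21a and Ccl21b were too low to compare. The part of depth in the levels of the 7 genes was not tested.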

Other observations

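Other genes found in lymphatic ECs spread around 0. Ackr2, a scavenger receptor for chemokines on lymphatic ECs, had 133 ± 49.9 CPM in the sham samples and 127 ± 22.3 CPM in the PNX samples (SD, n = 2), Fgl2 67.1 ± 14.7 and 60.9 ± 10.2 CPM, Pard6g 54.1 ± 11.9 and 46.6 ± 8.18 CPM, Tbx1 13.6 ± 4.15 and 14.5 ± 3.63 CPM and Fxyd6 13.9 ± 1.36 and 15.8 ± 0.346 CPM. The factor Maf, which lymphatic ECs and macrophages share, was higher in all PNX than in all sham libraries, as for 18.8% of all genes. Maf was at 16.7 ± 6.06 CPM in sham and 28.7 ± 8.00 CPM after PNX, with a log2 fold change of 0.78 (edgeR adjusted p = 0.451; 0.00181 with the replicate block). These genes were named after their values were seen, and the part of macrophages, whose summed marker level was also higher, in the Maf level was not tested.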
